A study of Saccharomyces cerevisiae with 16 samples.

Results

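Yeast cells labelled ck2 were compared with wild-type cells of the same series by RNA sequencing, over all genes. The groups, called CK2 and WT here, differ in the labels by genotype alone (ck2 and wt), and both were grown in the rich medium YPD, with no other treatment given. Each held 2 samples (replicates 2 and 3) with 1 library each, 4 of the 12 biological samples of the series, although a second label of CK2 replicate 2 numbers it 1. The label was read as casein kinase 2 because reads of its subunit gene CKA1 were nearly missing in CK2. Of 7125 genes in the table, 6468 had at least 1 RPKM (reads scaled to gene length and to the reads of the library) in at least 2 of the 4 libraries, and all of these were tested. The labels do not give the mutated gene, the kind of allele, the mating type or whether replicates were separate cultures. P-values thus measure only the spread between samples within groups, estimated over all 12 biological samples of the series.

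Casein kinase 2 is a protein kinase made of catalytic subunits (Cka1 and Cka2 in budding yeast) and regulatory subunits (Ckb1 and Ckb2), and it phosphorylates many nuclear proteins. Entry into the budding yeast cell cycle depends on a burst of transcription in late G1, driven by the factors SBF (Swi4 with Swi6) and MBF (Mbp1 with Swi6). Daughter cells separate from their mothers after mitosis with the help of enzymes that digest the septum. The general stress response depends on Msn2 and Msn4, which protein kinase A keeps out of the nucleus while cells grow on glucose. The results are ordered by these programmes and then by metabolic pathway.

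The CK2 samples differed from WT in several ways besides the label. The receptor gene of a cells, STE2, was at 8.15 and 7.29 RPKM in CK2, against 245 and 237 RPKM in WT, and the receptor gene of alpha cells, STE3, at 46.4 and 52.2 RPKM in CK2, against 4.83 and 7.74 RPKM in WT, so the groups carried transcripts of opposite mating types. The median log2 fold change was 0.90 over 306 genes of chromosome V and -0.02 over the 6105 genes that remain once chromosome V, the mitochondrial genome and the mating-type genes are set aside. Mitochondrial genes held 0.259% and 3.76% of the reads in CK2 replicates 2 and 3, against 6.75% and 5.47% in WT replicates 2 and 3. Replicates differed more in CK2, where their log2 difference had an SD over genes of 0.475, against 0.269 in WT. What part these features have in the differences that follow was not tested, and genes of the 3 left-out classes enter no count from here on. The read totals fitted to the RPKM values were 14019215 and 13125508 for CK2, against 12173509 and 12350806 for WT, so that 3 reads in a gene of 1 kb make 0.214 to 0.246 RPKM.

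CKA1 (YIL035C, chromosome IX, 287790 to 288908 in build R64) encodes a catalytic subunit and was at 0.0640 and 0.0680 RPKM in CK2, against 66.9 and 57.5 RPKM in WT. These values are 1 read in each CK2 library, 2 in all, against 1706 reads in the WT libraries. The CKA1 level was 944-fold lower in CK2, with an exact 95% interval of 261-fold to 7802-fold that covers counting error only. The other catalytic subunit gene, CKA2, was at 104 and 103 RPKM in CK2, against 120.0 and 113 RPKM in WT (log2 fold change -0.17 ± 0.09, adjusted p = 0.171). The regulatory subunit genes CKB1 and CKB2 had log2 fold changes of -0.10 ± 0.09 and 0.22 ± 0.12 (adjusted p = 0.412 and 0.195), and neither passed. The 3 nearest genes on each side of CKA1 (NOT3, PRM2, CST6, CAP2, BCY1 and ULP2) had log2 fold changes between -0.20 and 0.36, and none passed. The missing reads were thus seen at CKA1 and not at the genes around it.

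Genes that often serve as auxotrophic markers differed between the groups in part. URA3, of pyrimidine synthesis, and HIS3, of histidine synthesis, had at most 2 reads in each library of either group. LEU2, of leucine synthesis, was at 68.8 and 66.0 RPKM in CK2, against 34.9 and 40.6 RPKM in WT (log2 fold change 0.82 ± 0.17, adjusted p = 0.00701). TRP1, of tryptophan synthesis, was at 40.1 and 43.1 RPKM in CK2, against 61.9 and 54.7 RPKM in WT (log2 fold change -0.48 ± 0.15, adjusted p = 0.038). LYS2, of lysine synthesis, was at 26.7 and 25.7 RPKM in CK2, against 32.3 and 30.4 RPKM in WT (log2 fold change -0.25 ± 0.08, adjusted p = 0.0386). LEU2 was thus higher and TRP1 and LYS2 lower in CK2, and MET17 and ADE2 did not pass, at -0.57 and 0.23 on the log2 scale. LEU2 did not pass without WT replicate 2, and TRP1 and LYS2 missed the threshold with any 1 of the 4 samples left out and with upper-quartile scaling, and TRP1 also with a pseudocount of 0.1.

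Over all 6468 genes tested, 2093 (32.4%) passed an adjusted p of 0.05 in limma, 1097 (17%) higher and 996 (15.4%) lower in CK2. Of the 6105 genes outside the 3 left-out classes, 1833 (30%) passed, 848 (13.9%) higher and 985 (16.1%) lower in CK2. These shares are the background of every count that follows, unless another fit is named. Leaving out any 1 of the 4 samples lowered the count by more than 1.5 times, to 1053 without CK2 replicate 2, 1039 without CK2 replicate 3, 862 without WT replicate 2 and 1063 without WT replicate 3. In such a fit 1 group has a single sample, which is assumed to vary like the samples of the other groups. Counts and medians of a gene list "without each sample in turn" are given in that order. The shares over all genes are smaller in these fits than 13.9% and 16.1%. A fit of the 2 groups alone called 1174 of the 6105 genes higher and 1619 lower. Upper-quartile scaling shifted the median log2 fold change of the 6105 genes to 0.08, against -0.02 without it, and 62.0% of those past the threshold were then higher in CK2, against 46.3%. For 4724 of the 6105 genes (77.4%), both CK2 values lay on 1 side of both WT values. Log2 fold changes are on the log2(RPKM + 1) scale, so that changes of low genes come out too small. The value after ± is the standard error from the limma fit of all 12 samples. Where a count is 0, the number of members at an unadjusted p under 0.05 in limma stands in brackets.

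**Figure D1:**
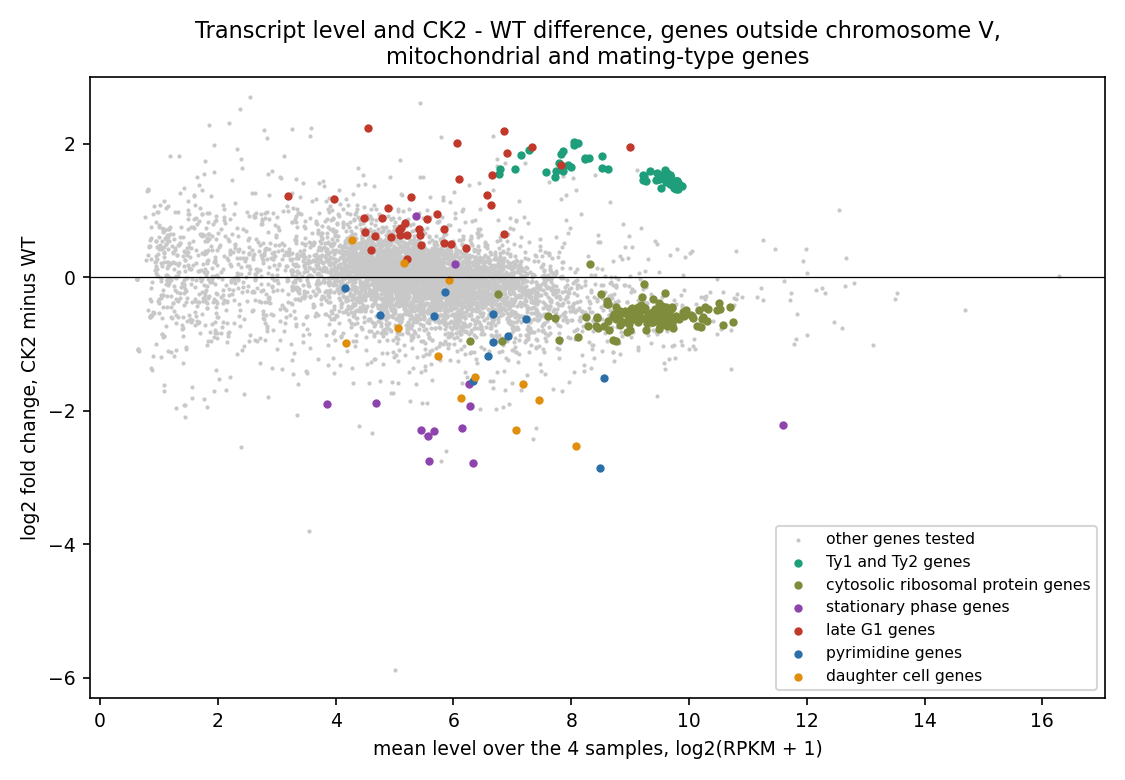
Log2 fold change of CK2 minus WT (y axis) against the mean level over the 4 samples as log2(RPKM + 1) (x axis), 1 point for each of the 6105 genes. Late G1 genes and Ty1 and Ty2 genes lie above 0, and most pyrimidine, daughter cell, stationary phase and ribosomal protein genes lie below it.

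The 12 genes with a standard name and the largest increases were led by genes of the G1/S transition. CLB6 (YGR109C, chromosome VII, 705359 to 706501), an S phase cyclin gene, was at 36.8 and 38.5 RPKM in CK2, against 6.33 and 8.29 RPKM in WT (log2 fold change 2.23 ± 0.23, adjusted p = 0.000249). SVS1, a cell wall protein gene, was at 177 and 202 RPKM in CK2, against 42.0 and 39.6 RPKM in WT (log2 fold change 2.19 ± 0.29, adjusted p = 0.00083). YOX1, the gene of a homeodomain repressor, was at 105 and 108 RPKM in CK2, against 25.0 and 26.2 RPKM in WT (log2 fold change 2.02 ± 0.14, adjusted p = 4.24e-05). In all 3 genes every CK2 value lay far above every WT value, and samples of a group lay nearer to each other than to the other group. PRY2, the gene of a secreted sterol-binding protein, had the highest level of the 12 in CK2, at 797 and 827 RPKM in CK2, against 213 and 204 RPKM in WT (log2 fold change 1.96 ± 0.16, adjusted p = 0.000107). The other 8 were PCL1 (a cyclin of the kinase Pho85), CLN1 (a G1 cyclin), ADH5 (an alcohol dehydrogenase), ACM1 (an inhibitor of the anaphase-promoting complex), YPS3 (a yapsin protease), TOS6 (a cell wall protein), NDJ1 (a meiotic telomere protein) and RNR3 (a ribonucleotide reductase subunit). Their log2 fold changes lay between 1.64 and 1.95, and none of the 12 had overlapping groups, which was required for a place among them.

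The 12 genes with a standard name and the largest decreases were of other kinds. After CKA1 came URA1 (YKL216W, chromosome XI, 25215 to 26159), the dihydroorotate dehydrogenase gene of pyrimidine synthesis, at 96.2 and 77.7 RPKM in CK2, against 673 and 589 RPKM in WT (log2 fold change -2.85 ± 0.13, adjusted p = 2.76e-06). SPG1, a gene of survival in stationary phase, was at 13.6 and 27.2 RPKM in CK2, against 139.8 and 137 RPKM in WT (log2 fold change -2.78 ± 0.40, adjusted p = 0.00116). CWP1, a cell wall mannoprotein gene, was at 12.4 and 14.2 RPKM in CK2, against 95.5 and 95.5 RPKM in WT (log2 fold change -2.76 ± 0.28, adjusted p = 0.000224). Each of these 3 genes had both CK2 values several-fold below both WT values, and SPG1 was lower in CK2 replicate 2 than in CK2 replicate 3. HXT5, a hexose transporter gene of slow growth, was at 11.5 and 11.1 RPKM in CK2, against 71.2 and 94.4 RPKM in WT (log2 fold change -2.75 ± 0.29, adjusted p = 0.000267). CTS1 (YLR286C, chromosome XII, 708448 to 710136), the chitinase gene of cell separation, was at 101 and 60.4 RPKM in CK2, against 514 and 408 RPKM in WT (log2 fold change -2.53 ± 0.23, adjusted p = 0.000145). The remaining 6 were TKL2 (a transketolase), DPC7, CPP3, SIP18 (a hydrophilin of desiccation tolerance), FMP45 (a membrane protein) and SCW11 (a glucanase-like cell wall protein), with log2 fold changes between -2.38 and -2.28.

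**Figure D2:**
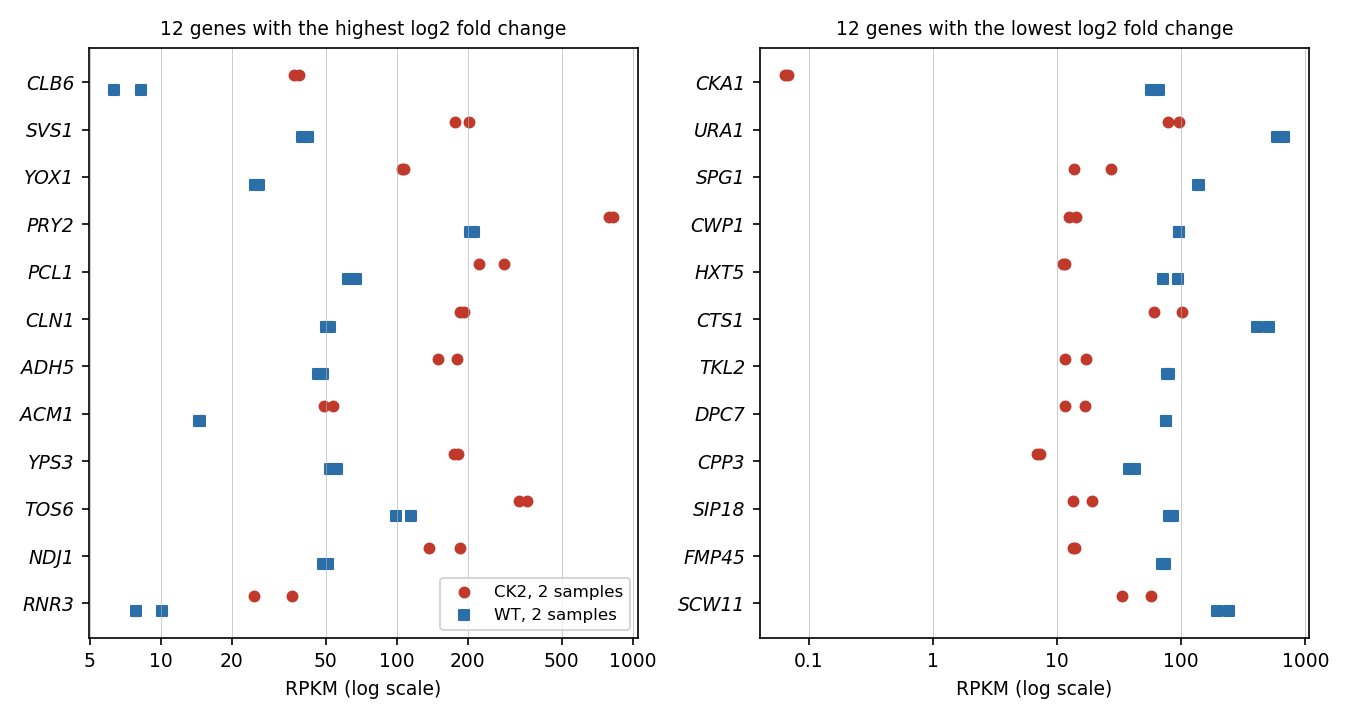
RPKM (log x axis) of the 12 genes with the highest (left) and the 12 with the lowest (right) log2 fold change, with CK2 as circles and WT as squares, 2 samples each. The groups do not overlap at any gene shown, which the choice of these genes required.

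Late G1 genes rose together. Of 37 tested genes of the late G1 wave, 33 were higher in CK2 and none lower (0), against 13.9% higher over all genes, and the median log2 fold change was 0.87. All 37 had both CK2 values above both WT values, where 77.4% of all genes had groups that did not overlap, in either direction. The list was written after values of these data had been seen. It had 27, 29, 29 and 27 higher genes without each sample in turn. In bulk RNA a larger share of cells in late G1 and more RNA of these genes per cell cannot be told apart.

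The cyclin genes of this wave and its regulators differed in size and direction. CLN1 was at 192 and 185 RPKM in CK2, against 50.2 and 52.0 RPKM in WT (log2 fold change 1.86 ± 0.18, adjusted p = 0.000195). CLN2, the other G1 cyclin gene of the wave, was at 153 and 145 RPKM in CK2, against 54.8 and 46.9 RPKM in WT (log2 fold change 1.54 ± 0.18, adjusted p = 0.00044). CLB5, the partner of CLB6 in S phase, was at 35.6 and 34.1 RPKM in CK2, against 17.7 and 19.1 RPKM in WT (log2 fold change 0.89 ± 0.16, adjusted p = 0.00346). CLB5 thus rose by less on the log2 scale than CLN1, CLN2 and CLB6. CLN3, the cyclin gene that acts upstream of SBF, was at 57.5 and 51.7 RPKM in CK2, against 71.5 and 69.8 RPKM in WT (log2 fold change -0.37 ± 0.10, adjusted p = 0.0252), and so went the other way. SIC1, the gene of the inhibitor of S phase cyclin kinase, was lower in CK2 as well, at 89.7 and 93.7 RPKM in CK2, against 132 and 124 RPKM in WT (log2 fold change -0.48 ± 0.09, adjusted p = 0.00371). SWI4 lies on chromosome V and was at 79.1 and 71.2 RPKM in CK2, against 22.6 and 23.3 RPKM in WT, a log2 fold change of 1.67 beside the chromosome's median of 0.90. SWI6, MBP1 and WHI5, the SBF repressor gene, did not pass, at 0.07, 0.08 and -0.10 on the log2 scale. CLB5, CLN3, SIC1, SWI4, SWI6, MBP1 and WHI5 were chosen after their values were seen.

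Some replication and cohesion genes of the wave were among those that rose. MCD1, a cohesin gene, was at 98.2 and 101 RPKM in CK2, against 35.1 and 35.5 RPKM in WT (log2 fold change 1.47 ± 0.15, adjusted p = 0.000219). RFA1, the gene of a single-strand DNA-binding protein, was at 62.3 and 56.3 RPKM in CK2, against 31.0 and 32.8 RPKM in WT (log2 fold change 0.87 ± 0.09, adjusted p = 0.000316). CDC21, the thymidylate synthase gene, was at 74.8 and 61.7 RPKM in CK2, against 34.0 and 35.2 RPKM in WT (log2 fold change 0.95 ± 0.14, adjusted p = 0.00117). None of the 3 genes had overlapping groups, and MCD1 had the largest difference among them. RNR1, the main ribonucleotide reductase gene, lies on chromosome V and is not counted, and had a log2 fold change of 1.93. The 4 counted members that did not pass were ASF1, RFA2, NRM1 and ELG1. Of 13 genes of replication licensing, an earlier step, CDC6 was higher (0.71) and MCM7 and ORC5 were lower (-0.49 and -0.47), and the median of -0.10 became 0.00 with upper-quartile scaling. MCM7 and ORC5 both missed the threshold without CK2 replicate 3 or WT replicate 2. MCD1, RFA1, CDC21, RNR1, ASF1, RFA2, NRM1 and ELG1 were chosen after their values were seen.

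The promoters of these genes were searched for the boxes of their factors, on both strands in the 500 bases before the start codon. The letters were ACGCGT (the MluI cell cycle box, of MBF) and CGCGAAA (1 form of the Swi4 box, of SBF). Other forms of the boxes were not searched for, and CLN1, CLN2 and SVS1 held neither box as searched. Both motifs were chosen after values had been seen, a match is no measure of binding, and 29 of 5553 promoters held both. At least 1 box was in 26.7% of 804 promoters of genes higher in CK2, 6.59% of 880 of genes lower in CK2 and 10.9% of all 5553. In the late G1 list, 31 of 37 promoters held one. Among the 607 genes with a box, 35.4% were higher and 9.56% lower, and the median log2 fold change was 0.22. Among the 4946 genes with neither box, 11.9% were higher and 16.6% lower, and the median was -0.03. A box was in 9 of the 12 genes with the largest increases and in 1 of the 12 with the largest decreases. Windows of 90 bases before CLB6 (chrVII:706820-706909, minus strand), PCL1 (chrXIV:87589-87678, plus strand) and PRY2 (chrXI:463577-463666, plus strand) are shown because each holds 2 boxes close together. They are from the RefSeq genome in build R64, 5′ to 3′ on the strand of the gene, with the boxes in capitals (TTTCGCG is the Swi4 box on the other strand).
CLB6: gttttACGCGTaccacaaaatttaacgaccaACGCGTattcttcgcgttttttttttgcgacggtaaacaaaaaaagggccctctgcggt
PCL1: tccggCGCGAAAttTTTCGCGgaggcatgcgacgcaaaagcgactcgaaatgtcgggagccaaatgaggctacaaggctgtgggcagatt
PRY2: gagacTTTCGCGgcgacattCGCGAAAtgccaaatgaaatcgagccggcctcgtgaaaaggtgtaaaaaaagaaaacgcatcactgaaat
The CLB6 window has a pair of MluI cell cycle boxes and the other windows a pair of Swi4 boxes in opposite orientation.

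**Figure D3:**
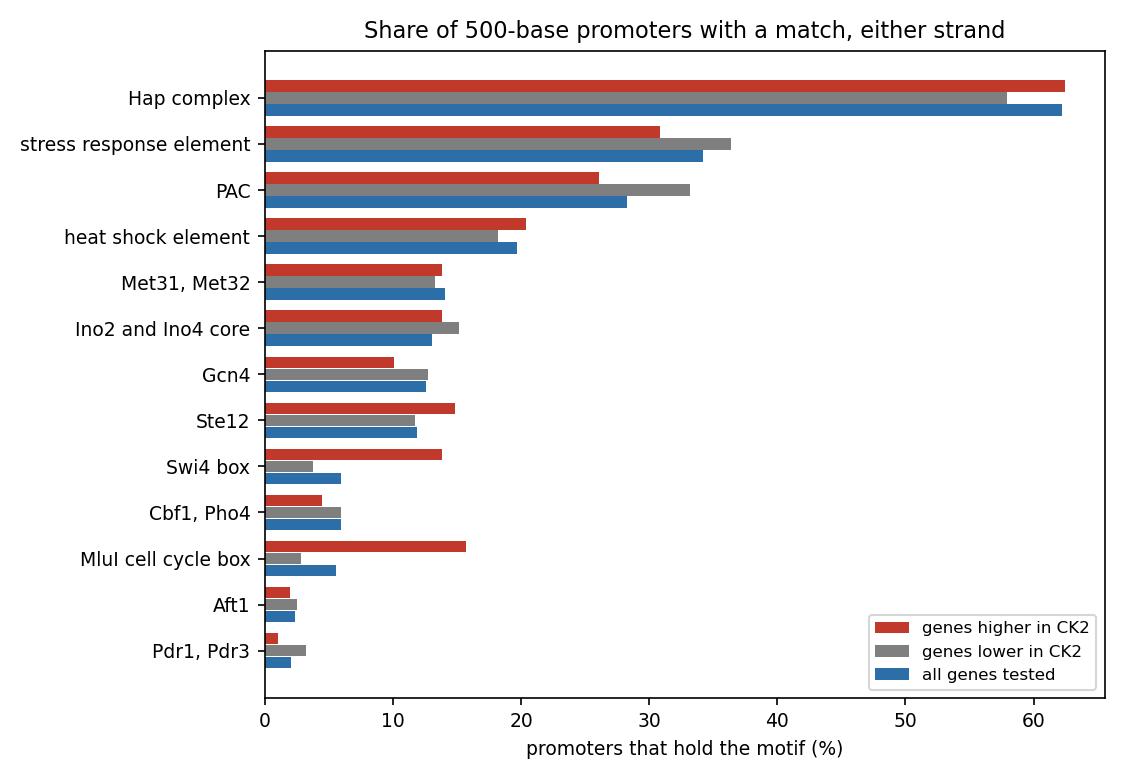
Share of promoters (%, x axis) that hold each searched motif (y axis, by factor), for genes higher in CK2, genes lower in CK2 and all genes tested. The site of Ppr1, described below, is left out of the figure. The MluI cell cycle box was in 15.7% of higher, 2.84% of lower and 5.55% of all promoters, and the Swi4 box in 13.8%, 3.75% and 5.91%.

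Few genes of the mitotic wave passed. Of 19, 2 were higher and 1 lower in CK2, against 13.9% and 16.1% over all genes, and 14 had a positive log2 fold change, with a median of 0.16. Upper-quartile scaling gave 5 higher and 1 lower with a median of 0.27 (the list was written after values had been seen). CLB2, the main mitotic cyclin gene, was at 55.3 and 69.6 RPKM in CK2, against 53.2 and 47.8 RPKM in WT (log2 fold change 0.29 ± 0.16, adjusted p = 0.187). CLB1, its paralog, was at 100.3 and 109 RPKM in CK2, against 93.9 and 82.2 RPKM in WT (log2 fold change 0.25 ± 0.19, adjusted p = 0.33). CLB2 and CLB1 did not pass. MOB1, a mitotic exit gene, rose (log2 fold change 0.30 ± 0.10, adjusted p = 0.0468), and FKH2, a forkhead factor gene, was lower, at 26.7 and 31.5 RPKM in CK2, against 46.7 and 43.9 RPKM in WT (log2 fold change -0.62 ± 0.12, adjusted p = 0.00406). The mitotic list had 2, 0, 1 and 0 higher genes without each sample in turn. CLB2 and CLB1 were chosen after their values were seen.

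Genes of daughter cells fell. Of 12, 9 were lower in CK2, against 16.1% over all genes, and 1 was higher, with a median of -1.33. SCW11 was at 57.1 and 33.7 RPKM in CK2, against 241 and 196 RPKM in WT (log2 fold change -2.28 ± 0.29, adjusted p = 0.000654). DSE2, a glucanase gene of the septum, was at 89.9 and 62.8 RPKM in CK2, against 304 and 243 RPKM in WT (log2 fold change -1.84 ± 0.24, adjusted p = 0.000836). DSE4, another glucanase gene, was at 39.0 and 22.7 RPKM in CK2, against 97.1 and 117 RPKM in WT (log2 fold change -1.81 ± 0.22, adjusted p = 0.000639). In these 3 genes and CTS1, CK2 replicate 3 was the lower CK2 sample and both CK2 values lay below both WT values. AMN1, an antagonist gene of mitotic exit, was at 72.9 and 69.7 RPKM in CK2, against 227 and 209.8 RPKM in WT (log2 fold change -1.60 ± 0.08, adjusted p = 7.53e-06). DSE1, a daughter cell gene on chromosome V, is not counted and was lower despite the higher median of that chromosome, at 135 and 82.0 RPKM in CK2, against 343 and 296 RPKM in WT (log2 fold change -1.59 ± 0.22, adjusted p = 0.00104). ASH1, a repressor gene, and SWI5, a transcription factor gene, did not pass, at -0.04 and 0.21. The daughter list had 9, 7, 7 and 9 lower genes without each sample in turn. AMN1, DSE1, ASH1 and SWI5 were chosen after their values were seen.

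Histone genes, which are transcribed in S phase, did not follow the late G1 genes. Of 11, 6 were lower and 1 higher, with a median of -0.49. HTA2, a histone H2A gene, was at 54.3 and 59.6 RPKM in CK2, against 122 and 115 RPKM in WT (log2 fold change -1.04 ± 0.16, adjusted p = 0.00148). HHF1, a histone H4 gene, was at 287 and 288 RPKM in CK2, against 563 and 535 RPKM in WT (log2 fold change -0.93 ± 0.15, adjusted p = 0.00192). CSE4, which encodes the histone H3 of centromeres, was the 1 that rose, at 56.3 and 57.6 RPKM in CK2, against 36.8 and 37.8 RPKM in WT (log2 fold change 0.60 ± 0.10, adjusted p = 0.00288). Histone genes have near-identical copies that can share reads, so the values of single copies are uncertain. The histone list had 3 lower genes whichever of the 4 samples was left out. CSE4 was chosen after its values were seen.

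Many genes of the general stress response were lower in CK2. Of 29, 14 were lower and none higher (0), with a median of -0.81. HSP12, the gene of a membrane-protecting protein, was at 916 and 1317 RPKM in CK2, against 5129.6 and 5079.9 RPKM in WT (log2 fold change -2.22 ± 0.37, adjusted p = 0.00244). SIP18 was at 13.4 and 19.0 RPKM in CK2, against 86.3 and 80.0 RPKM in WT (log2 fold change -2.31 ± 0.31, adjusted p = 0.00086). ALD3, a stress-induced aldehyde dehydrogenase gene, was at 31.5 and 55.1 RPKM in CK2, against 168 and 165 RPKM in WT (log2 fold change -1.97 ± 0.41, adjusted p = 0.00707). The groups did not overlap in these 3 genes, and CK2 replicate 2 was the lower CK2 sample in each. CTT1, the cytosolic catalase gene, was at 54.0 and 55.0 RPKM in CK2, against 167 and 189 RPKM in WT (log2 fold change -1.68 ± 0.48, adjusted p = 0.0271). HSP104, the disaggregase gene, was at 514 and 635 RPKM in CK2, against 931 and 1079.9 RPKM in WT (log2 fold change -0.81 ± 0.22, adjusted p = 0.0209). Not every member passed, and UBI4, the polyubiquitin gene, was at 434 and 388 RPKM in CK2, against 419 and 495 RPKM in WT (log2 fold change -0.15 ± 0.12, adjusted p = 0.382). Of the factor genes, MSN4 was lower (log2 fold change -0.41 ± 0.09, adjusted p = 0.0111) and MSN2 did not pass (log2 fold change 0.28 ± 0.13, adjusted p = 0.142). The stress list had 4, 12, 7 and 7 lower genes without each sample in turn, the fewest without CK2 replicate 2. CTT1, HSP104, UBI4, MSN4 and MSN2 were chosen after their values were seen.

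The stress response element AGGGG, the site of Msn2 and Msn4, was in 24 of the 29 promoters of the stress list and in 9 of the 12 genes with the largest decreases, and also in 5 of the 12 with the largest increases. Over all genes it was in 30.8% of promoters of higher genes, 36.4% of those of lower genes and 34.2% of all. HSP12 held 5 matches and SIP18 held 2, and windows with 3 and 2 of them (chrVI:106816-106905, plus strand, and chrXIII:610623-610712, plus strand) are shown from the same RefSeq genome, with the matches in capitals (CCCCT is the element on the other strand).
HSP12: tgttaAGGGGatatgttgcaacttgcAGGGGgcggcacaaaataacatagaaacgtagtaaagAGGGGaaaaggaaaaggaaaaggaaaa
SIP18: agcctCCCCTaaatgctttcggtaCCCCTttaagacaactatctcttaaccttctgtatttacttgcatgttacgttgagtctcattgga

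Genes of stationary phase and spore-wall stress, called stationary phase genes here, had the lowest median of all lists, -2.22. Of 13, 11 were lower and 1 higher. The list was written after values had been seen, which favours this rank. It holds SPG1, HXT5, TKL2 and SIP18, which are among the 12 genes with the largest decreases. HSP12, SIP18 and GRE1 are shared with the stress list. SPG4, a gene needed in stationary phase, was at 15.2 and 34.4 RPKM in CK2, against 104 and 125 RPKM in WT (log2 fold change -2.26 ± 0.37, adjusted p = 0.0023). GRE1, a hydrophilin gene, was at 26.3 and 37.3 RPKM in CK2, against 122 and 121 RPKM in WT (log2 fold change -1.92 ± 0.30, adjusted p = 0.00192). MPC3, a mitochondrial pyruvate carrier gene, was at 7.44 and 13.1 RPKM in CK2, against 37.3 and 41.5 RPKM in WT (log2 fold change -1.88 ± 0.53, adjusted p = 0.025). Both CK2 values lay well below WT in all 3 genes, and CK2 replicate 2 was again the lower. SNZ1, a vitamin B6 synthesis gene, went the other way, at 52.0 and 53.4 RPKM in CK2, against 26.7 and 28.4 RPKM in WT (log2 fold change 0.91 ± 0.09, adjusted p = 0.000195), and SPG5 did not pass. The stationary list had 10, 11, 10 and 10 lower genes without each sample in turn. SPG4, MPC3, SNZ1 and SPG5 were chosen after their values were seen.

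Several chaperone genes were lower. Of 24, of the cytosol and of organelles, 10 were lower and none higher (0), with a median of -0.39. SSB1, a ribosome-associated Hsp70 gene, was at 278 and 285 RPKM in CK2, against 673 and 581 RPKM in WT (log2 fold change -1.15 ± 0.12, adjusted p = 0.00027). HSC82, the constitutive Hsp90 gene, was at 756 and 655 RPKM in CK2, against 1412 and 1454 RPKM in WT (log2 fold change -1.03 ± 0.20, adjusted p = 0.00495). SSE1, an Hsp110 gene, was at 547 and 550.3 RPKM in CK2, against 1131 and 1119 RPKM in WT (log2 fold change -1.03 ± 0.21, adjusted p = 0.00555). The groups did not overlap in these genes, and HSP82, the inducible Hsp90 gene, had a like change (log2 fold change -1.07 ± 0.23, adjusted p = 0.00744). Reads of SSB1 and of the Hsp90 pair can be shared with close paralogs. The mitochondrial chaperone genes HSP60, SSC1 and MDJ1 did not pass, at -0.34, -0.20 and -0.30, while KAR2, the Hsp70 gene of the endoplasmic reticulum, was lower (log2 fold change -0.75 ± 0.19, adjusted p = 0.0148). HSF1, the heat shock factor gene, was at 45.2 and 41.0 RPKM in CK2, against 43.2 and 44.5 RPKM in WT, which did not pass. The chaperone list had 7, 5, 6 and 4 lower genes without each sample in turn. HSP60, SSC1, MDJ1, KAR2 and HSF1 were chosen after their values were seen.

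**Figure D4:**
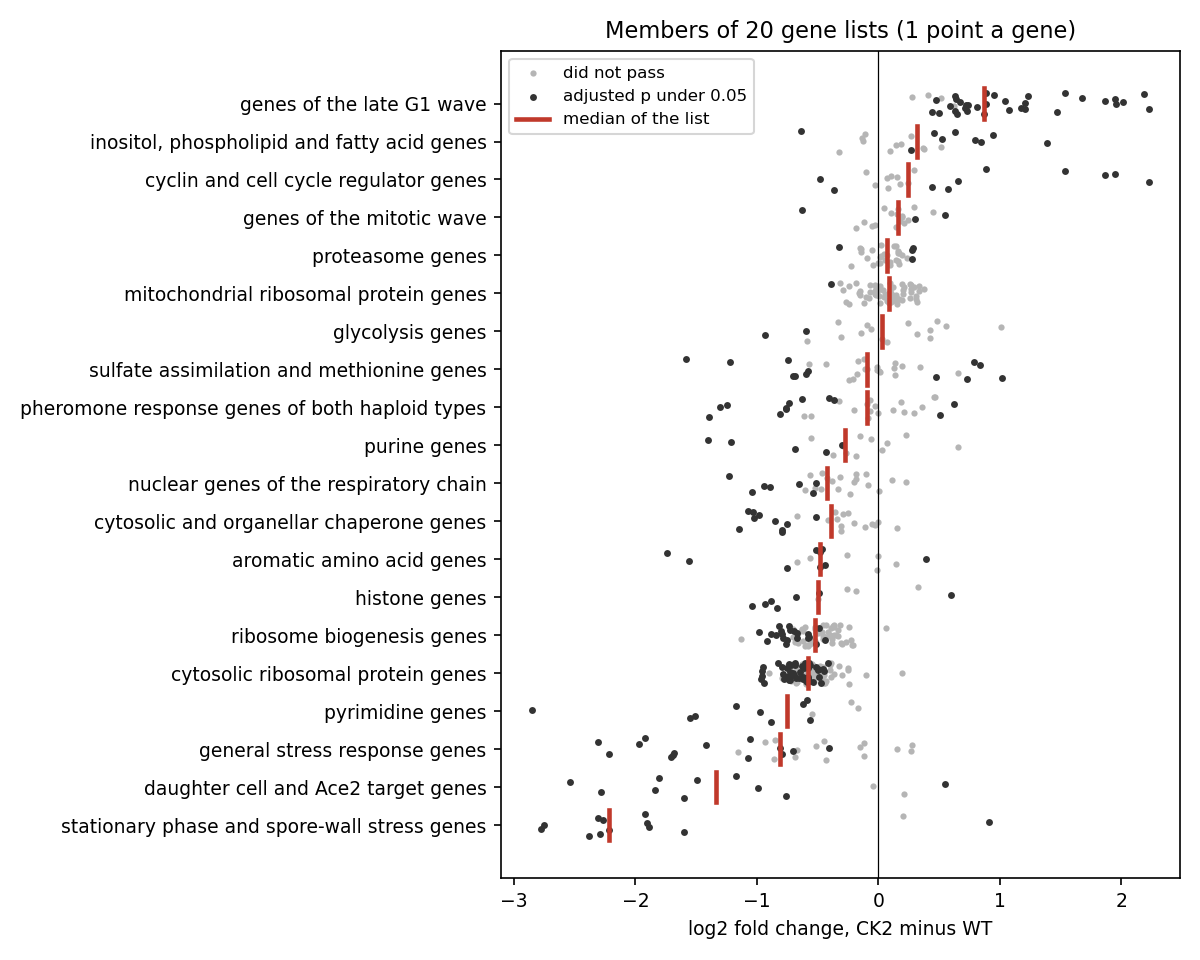
Log2 fold change of CK2 minus WT (x axis) for the members of 20 gene lists (y axis), 1 point a gene, dark where the adjusted p was under 0.05, with the median of each list as a red line. Medians run from 0.87 for the late G1 wave to -2.22 for stationary phase genes, and both of these lists were written after values had been seen.

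Many genes of the ribosome were lower by a small amount. Of 131 cytosolic ribosomal protein genes, 47 were lower and none higher (0), with a median of -0.58. All 131 had groups that did not overlap, as 77.4% of all genes did, and in 1 of the 131 CK2 was the higher. RPL8A, a gene of the large subunit, was at 299 and 289 RPKM in CK2, against 590.2 and 551 RPKM in WT (log2 fold change -0.96 ± 0.14, adjusted p = 0.00143). RPL22B, another, was at 77.5 and 75.0 RPKM in CK2, against 149 and 149.6 RPKM in WT (log2 fold change -0.96 ± 0.08, adjusted p = 0.00011). The values within each group were close in both genes, and these and RPS28B and RPL18B had the largest changes past the threshold. The ribosomal protein list had 9, 13, 5 and 18 lower genes without each sample in turn and 127 in a fit of the 2 groups alone. Most of these proteins have paired gene copies that can share reads.

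Some ribosome assembly genes were lower too. Of 75, 21 were lower and none higher (0), with a median of -0.52. Groups did not overlap in 74 of them, as in 77.4% of all genes. NOP56, a gene of the box C/D particles that modify ribosomal RNA, was at 149 and 151 RPKM in CK2, against 319 and 277 RPKM in WT (log2 fold change -0.98 ± 0.15, adjusted p = 0.00143). UTP10, of the small subunit processome, was at 61.2 and 64.5 RPKM in CK2, against 120.0 and 107 RPKM in WT (log2 fold change -0.84 ± 0.21, adjusted p = 0.0141). Of 29 genes of RNA polymerases I and III, 12 were lower and 2 higher, with a median of -0.38. RPA190, the largest subunit gene of RNA polymerase I, was at 72.0 and 77.3 RPKM in CK2, against 153 and 135 RPKM in WT (log2 fold change -0.94 ± 0.12, adjusted p = 0.000869). RPA135, its second subunit, was at 85.3 and 96.9 RPKM in CK2, against 185 and 159.6 RPKM in WT (log2 fold change -0.91 ± 0.22, adjusted p = 0.0141). The 2 that rose, TFC7 and TFC8, encode parts of the factor TFIIIC (0.62 and 0.46). The assembly list had 5, 6, 5 and 11 lower genes and the polymerase list 1, 5, 1 and 6, with 0, 1, 0 and 1 higher, without each sample in turn, and a fit of the 2 groups alone gave 67 lower assembly genes and 17 lower polymerase genes. Among mitochondrial ribosomal protein genes, 1 of 64 (MRPS16) was lower and none higher (2), with a median of 0.09. MRPS16 passed without CK2 replicate 2 and in no other fit that left out a sample, and upper-quartile scaling gave 6 higher and none lower with a median of 0.20. The PAC motif GATGAG of ribosome assembly genes was in 66 of the 75 promoters, and in 26.1% of higher, 33.2% of lower and 28.3% of all promoters. TFC7 and TFC8 were chosen after their values were seen.

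Pyrimidine genes were lower at most steps. Of 12, 9 were lower and none higher (0), with a median of -0.75, and all 12 log2 fold changes were negative. URA2, the gene of the first steps, was at 228 and 167 RPKM in CK2, against 549 and 564 RPKM in WT (log2 fold change -1.51 ± 0.15, adjusted p = 0.000219). URA4, the dihydroorotase gene, was at 59.3 and 57.1 RPKM in CK2, against 133 and 132 RPKM in WT (log2 fold change -1.17 ± 0.13, adjusted p = 0.000305). URA1, the next step, had the largest change of the list. URA5, the orotate phosphoribosyltransferase gene, was at 115 and 120.4 RPKM in CK2, against 193 and 171 RPKM in WT (log2 fold change -0.62 ± 0.12, adjusted p = 0.00484). FUR1, the gene of uracil salvage, was at 37.0 and 42.5 RPKM in CK2, against 127 and 109.9 RPKM in WT (log2 fold change -1.55 ± 0.27, adjusted p = 0.00288). The groups did not overlap in any of these genes. PPR1, the activator gene of the pathway, did not pass, at 15.5 and 15.9 RPKM in CK2, against 18.4 and 17.2 RPKM in WT (log2 fold change -0.17 ± 0.10, adjusted p = 0.244). URA3, the step after URA5, had no read in CK2 and 1 and 2 reads in the WT libraries. The pyrimidine list had 6, 7, 6 and 8 lower genes without each sample in turn. URA5 and PPR1 were chosen after their values were seen.

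The site of Ppr1 was searched for as TTCGG and CCGAA with 6 bases between them, a motif chosen after values had been seen. It was in 2 of the 5553 promoters, those of URA1 and of SPO24 (named here for that match), so the other lower pyrimidine genes had no match to these letters in the window searched. The URA1 match is shown in capitals, from the same genome (chrXI:25027-25116, plus strand).
URA1: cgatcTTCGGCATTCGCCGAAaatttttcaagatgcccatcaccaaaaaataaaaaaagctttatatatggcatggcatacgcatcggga

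Purine genes changed most at the branch to guanine nucleotides. Of 16, 5 were lower and none higher (0), with a median of -0.28. IMD4, an IMP dehydrogenase gene, was at 104 and 92.4 RPKM in CK2, against 262 and 258 RPKM in WT (log2 fold change -1.40 ± 0.10, adjusted p = 5.21e-05). IMD3, its paralog, was at 144 and 122 RPKM in CK2, against 318 and 299 RPKM in WT (log2 fold change -1.21 ± 0.13, adjusted p = 0.000257). IMD2 was lower too (log2 fold change -0.69 ± 0.19, adjusted p = 0.0238), and reads may be shared among the IMD genes. ADE6 and ADE16, of the common pathway, were lower by less, at -0.43 and -0.30, and ADE4, ADE13 and ADE17 did not pass, at -0.56, 0.07 and -0.06. The purine list had 3, 2, 2 and 3 lower genes without each sample in turn and 2 with upper-quartile scaling. ADE16, ADE4, ADE13 and ADE17 were chosen after their values were seen.

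**Figure D5:**
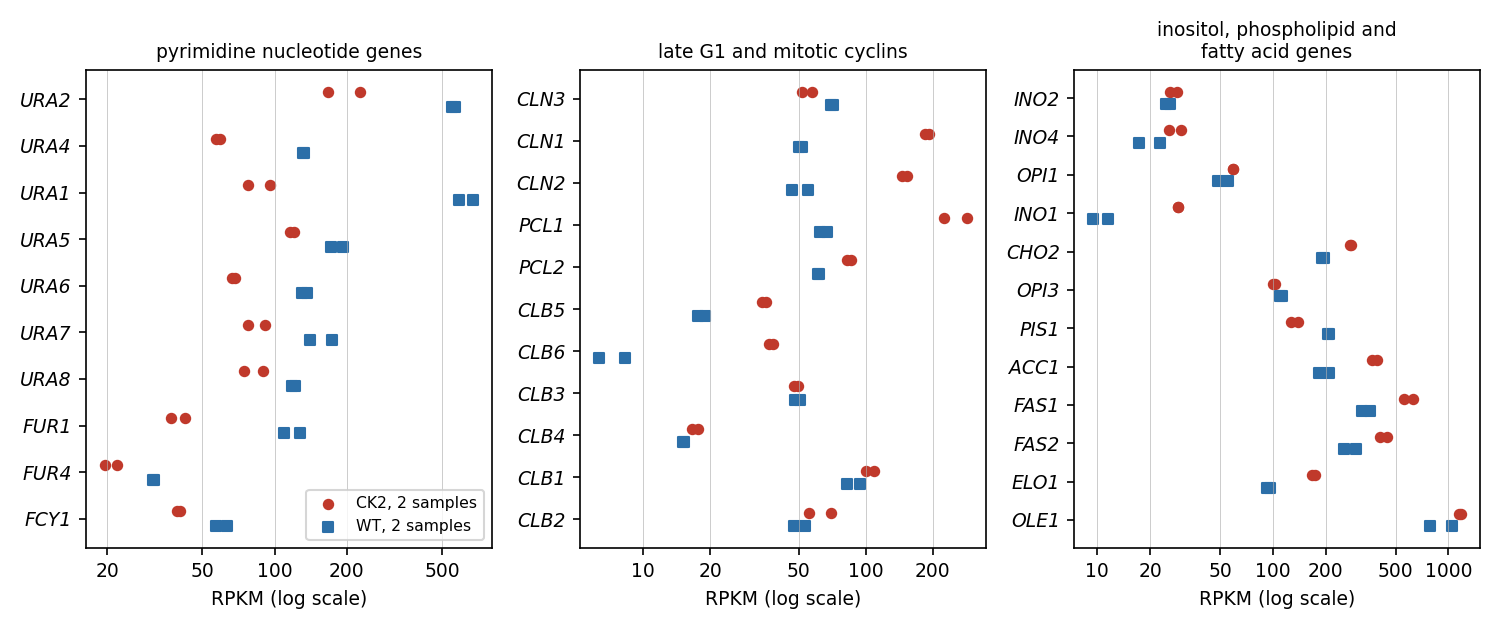
RPKM (log x axes) of pyrimidine genes (left), cyclin genes (middle) and inositol, phospholipid and fatty acid genes (right), with CK2 as circles and WT as squares, 2 samples each. CK2 lies left of WT at all pyrimidine genes shown and right of WT at CLN1, CLN2, PCL1, CLB5, CLB6, INO1 and ACC1, while the groups overlap at CLB3 (CLB5 and CLB3 were chosen after their values were seen).

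Several genes of phospholipid and fatty acid synthesis were higher. Of 20, 8 were higher and 1 lower in CK2, with a median of 0.32. INO1 (YJL153C, chromosome X, 134332 to 135933), the inositol phosphate synthase gene, which inositol represses, was at 29.0 and 29.0 RPKM in CK2, against 11.6 and 9.45 RPKM in WT (log2 fold change 1.39 ± 0.14, adjusted p = 0.000219). ACC1, the acetyl-CoA carboxylase gene, was at 390.2 and 365 RPKM in CK2, against 208 and 184 RPKM in WT (log2 fold change 0.94 ± 0.13, adjusted p = 0.00115). FAS1, a fatty acid synthase gene, was at 628 and 559 RPKM in CK2, against 359.7 and 322 RPKM in WT (log2 fold change 0.80 ± 0.12, adjusted p = 0.00122). All CK2 values of these 3 genes lay above all WT values, and ELO1, a fatty acid elongase gene, and FAS2 were also higher (0.84 and 0.63). PIS1, the phosphatidylinositol synthase gene, was the 1 that was lower, at 126 and 139.9 RPKM in CK2, against 209 and 207 RPKM in WT (log2 fold change -0.64 ± 0.12, adjusted p = 0.00379). Of the regulator genes, INO4, an activator, was higher (log2 fold change 0.46 ± 0.13, adjusted p = 0.0297), and INO2, its partner, and OPI1, the repressor, did not pass, at 0.10 and 0.19. The lipid list had 7, 6, 7 and 6 higher genes without each sample in turn. Of 26 ergosterol genes, 1 was higher and 3 lower, with a median of -0.02 that became 0.09 with upper-quartile scaling, and the counts were 0 higher and 2, 1, 0 and 2 lower without each sample in turn. FAS2, PIS1, INO4, INO2 and OPI1 were chosen after their values were seen.

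The core of the Ino2 and Ino4 site, CATGTG, chosen after values had been seen, was in 13 of the 20 promoters of the lipid list. Over all genes it was in 13.8% of higher, 15.1% of lower and 13.1% of all promoters. INO1 held it 2 times, once on each strand, and the window with both, from the same genome, is shown with the matches in capitals (chrX:136092-136181, minus strand).
INO1: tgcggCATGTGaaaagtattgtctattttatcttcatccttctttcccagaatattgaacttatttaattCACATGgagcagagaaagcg

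Most aromatic amino acid genes that passed were lower. Of 15, 8 were lower and 1 higher, with a median of -0.48, and the auxotrophic marker gene TRP1 is counted among the lower ones. ARO9, an aminotransferase gene of breakdown, was at 14.7 and 11.7 RPKM in CK2, against 50.5 and 42.0 RPKM in WT (log2 fold change -1.74 ± 0.25, adjusted p = 0.00119). ARO10, the decarboxylase gene of the next step, was at 12.6 and 12.8 RPKM in CK2, against 42.1 and 36.7 RPKM in WT (log2 fold change -1.56 ± 0.21, adjusted p = 0.000868). ARO4, of the first step of synthesis, was at 154 and 139 RPKM in CK2, against 263 and 231 RPKM in WT (log2 fold change -0.75 ± 0.13, adjusted p = 0.0029). The breakdown genes thus had the larger changes, with no overlap of the groups. ARO80, the activator gene of ARO9 and ARO10, was the 1 that rose, at 24.6 and 25.6 RPKM in CK2, against 18.0 and 19.9 RPKM in WT (log2 fold change 0.39 ± 0.12, adjusted p = 0.0332). The aromatic list had 5, 5, 4 and 5 lower genes and no higher gene without each sample in turn. ARO80 was chosen after its values were seen.

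Arginine genes moved in both directions. Of 13, 3 were higher and 4 lower, with a median of 0.00 that became -0.03 with median-of-ratios scaling. ARG1, the argininosuccinate synthase gene, was at 309.6 and 362 RPKM in CK2, against 133 and 149.9 RPKM in WT (log2 fold change 1.24 ± 0.16, adjusted p = 0.000823). CAR1, the arginase gene, was at 84.1 and 103 RPKM in CK2, against 64.6 and 58.7 RPKM in WT (log2 fold change 0.59 ± 0.19, adjusted p = 0.046). CAR2, the next breakdown gene, was at 76.2 and 69.1 RPKM in CK2, against 122 and 124 RPKM in WT (log2 fold change -0.76 ± 0.19, adjusted p = 0.0159). CAR1 and CAR2, which act in a row, thus changed in opposite directions, and ARG3, of synthesis, rose (0.73). The arginine list had 1, 1, 1 and 1 higher genes and 3, 1, 1 and 3 lower genes without each sample in turn. Among other amino acid genes, 3 of 9 of lysine, 3 of 13 of threonine and serine and 3 of 11 of branched-chain amino acids were lower, and 0 (0), 0 (1) and 2 were higher. These counts include auxotrophic marker genes, LYS2 among the lower lysine genes and LEU2 among the higher branched-chain genes. CHA1, the serine deaminase gene, was at 162 and 94.6 RPKM in CK2, against 334 and 408 RPKM in WT (log2 fold change -1.57 ± 0.34, adjusted p = 0.00771). LYS4, a homoaconitase gene, was at 31.4 and 33.9 RPKM in CK2, against 61.8 and 57.9 RPKM in WT (log2 fold change -0.85 ± 0.11, adjusted p = 0.000698). The lysine list had 1 lower gene whichever sample was left out, and without each sample in turn the threonine and serine list had 3, 1, 2 and 2, and the branched-chain list 2, 1, 0 and 2, with 1, 1, 0 and 1 higher.

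Sulfur and nitrogen genes had no common direction. Of 31 sulfur genes, 5 were higher and 7 lower, with a median of -0.09 that became 0.01 with upper-quartile scaling. SAM3, the S-adenosylmethionine permease gene, was at 8.41 and 9.29 RPKM in CK2, against 28.7 and 28.4 RPKM in WT (log2 fold change -1.59 ± 0.15, adjusted p = 0.000152). MET32, a regulator gene of the pathway, was at 11.5 and 13.4 RPKM in CK2, against 4.28 and 7.31 RPKM in WT (log2 fold change 1.02 ± 0.23, adjusted p = 0.00962). MET3, of the first step of sulfate assimilation, was at 16.8 and 17.4 RPKM in CK2, against 17.1 and 17.0 RPKM in WT (log2 fold change 0.00 ± 0.14, adjusted p = 0.99). SAM3 was thus lower, MET32 higher and MET3 nearly even. The sulfur list had 4, 4, 3 and 4 higher genes without each sample in turn. Of 34 nitrogen genes, 6 were higher and 5 lower, with a median of -0.02 that became 0.06 with upper-quartile scaling. PUT4, the proline permease gene, was at 6.82 and 8.61 RPKM in CK2, against 2.18 and 3.09 RPKM in WT (log2 fold change 1.26 ± 0.21, adjusted p = 0.00237). LYP1, the lysine permease gene, was at 79.3 and 70.2 RPKM in CK2, against 155 and 148 RPKM in WT (log2 fold change -1.01 ± 0.23, adjusted p = 0.00935). PUT1, the proline oxidase gene, rose with PUT4 (1.08). The nitrogen list had 4, 2, 3 and 4 higher and 3, 2, 1 and 3 lower genes without each sample in turn. MET3 was chosen after its values were seen.

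Central carbon lists differed in direction, and most hexose transport and fermentation genes had negative log2 fold changes. Of 17 glycolysis genes, 2 were lower and none higher (3), with a median of 0.03 that became -0.01 with median-of-ratios scaling. HXK1, a hexokinase gene, was at 756 and 728 RPKM in CK2, against 1375 and 1462 RPKM in WT (log2 fold change -0.93 ± 0.18, adjusted p = 0.00503). PFK1, a phosphofructokinase gene, was at 242 and 210.3 RPKM in CK2, against 339 and 344 RPKM in WT (log2 fold change -0.60 ± 0.14, adjusted p = 0.0108). MDH2, the malate dehydrogenase gene of gluconeogenesis, was at 37.2 and 32.2 RPKM in CK2, against 145 and 132 RPKM in WT (log2 fold change -1.97 ± 0.17, adjusted p = 0.000118). These 3 genes were lower with no overlap, and PCK1, the phosphoenolpyruvate carboxykinase gene, was higher, at 35.4 and 28.4 RPKM in CK2, against 10.8 and 12.1 RPKM in WT (log2 fold change 1.40 ± 0.34, adjusted p = 0.014). Of 12 gluconeogenesis genes, 3 were higher and 2 lower. Of 17 hexose transport genes, 5 were lower and none higher (2), with a median of -0.41 and a positive log2 fold change in 5. HXT5 had the largest decrease of the list (-2.75). HXT1, a low-affinity transporter gene, was at 17.0 and 10.1 RPKM in CK2, against 32.2 and 34.0 RPKM in WT (log2 fold change -1.27 ± 0.33, adjusted p = 0.0193). The glycolysis list had 2, 1, 1 and 1 lower genes and 0, 2, 0 and 0 higher, the gluconeogenesis list 2, 1, 0 and 3 higher, and the hexose list 3, 2, 1 and 1 lower without each sample in turn. Of 17 fermentation genes, ADH5 was higher and 5 were lower, with a median of -0.34 and a positive log2 fold change in 4. ALD3 had the largest decrease of the list (-1.97). ALD6, of acetate synthesis, was at 199 and 151 RPKM in CK2, against 352 and 301 RPKM in WT (log2 fold change -0.91 ± 0.16, adjusted p = 0.00322). The fermentation list had 3, 5, 5 and 5 lower genes without each sample in turn.

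Some nuclear genes of respiration were lower. Of 25 respiratory chain genes, 7 were lower and none higher (0), with a median of -0.42. NDE1, a gene of an external NADH dehydrogenase, was at 48.0 and 50.4 RPKM in CK2, against 120.0 and 113 RPKM in WT (log2 fold change -1.23 ± 0.32, adjusted p = 0.0195). QCR10, a gene of the cytochrome bc1 complex, was at 88.4 and 99.6 RPKM in CK2, against 175 and 187 RPKM in WT (log2 fold change -0.94 ± 0.20, adjusted p = 0.00692). The groups did not overlap in either gene. The median difference of the list to the WT mean was -0.43 in CK2 replicate 2 and -0.39 in CK2 replicate 3, whose shares of mitochondrial reads were 0.259% and 3.76%. Of 17 ATP synthase genes, 2 were lower, against 16.1% over all genes, and none higher (0), with a median of -0.37. The respiratory chain list had 2, 3, 2 and 2 lower genes and the ATP synthase list 0 without each sample in turn, and they had 17 and 12 in a fit of the 2 groups alone. HAP4, an activator gene of respiration, was at 106 and 98.1 RPKM in CK2, against 134 and 149 RPKM in WT (log2 fold change -0.47 ± 0.12, adjusted p = 0.0178). HAP1, a heme-dependent factor gene, was at 306 and 316 RPKM in CK2, against 166 and 175 RPKM in WT (log2 fold change 0.86 ± 0.17, adjusted p = 0.00497), and so rose while HAP4 fell. Of 20 tricarboxylic acid cycle genes, 5 were lower and 1, the citrate synthase gene CIT3, higher (log2 fold change 0.97 ± 0.15, adjusted p = 0.002), and 4, 2, 4 and 2 were lower without each sample in turn.

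Pheromone response genes fell in part. Of 29, 10 were lower and 2 higher, with a median of -0.09 that became 0.01 with upper-quartile scaling. FUS3, the mating MAP kinase gene, was at 22.7 and 25.7 RPKM in CK2, against 68.5 and 61.8 RPKM in WT (log2 fold change -1.39 ± 0.11, adjusted p = 9.43e-05). FAR1, which arrests cells in G1 before mating, was at 33.7 and 37.5 RPKM in CK2, against 86.2 and 84.9 RPKM in WT (log2 fold change -1.24 ± 0.11, adjusted p = 0.000117). STE12, the factor gene of the response, was at 23.9 and 29.3 RPKM in CK2, against 46.9 and 44.3 RPKM in WT (log2 fold change -0.76 ± 0.11, adjusted p = 0.00142). In these 3 genes both CK2 values lay below both WT values. STE11, a kinase gene of the same cascade, went the other way (log2 fold change 0.63 ± 0.10, adjusted p = 0.00195), and STE5, STE7 and STE20 did not pass, at -0.07, 0.21 and -0.20. The groups carried transcripts of opposite mating types, as the STE2 and STE3 values above show, and the part of that in these values was not tested. The pheromone list had 6, 7, 6 and 6 lower and 2, 2, 1 and 2 higher genes without each sample in turn. STE12, STE11, STE5, STE7 and STE20 were chosen after their values were seen.

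Retrotransposon genes of the families Ty1 and Ty2 rose, and those of Ty3 and Ty4 did not pass. The families were added to the lists after values had been seen. All 57 Ty1 and all 20 Ty2 genes tested were higher in CK2, with medians of 1.45 and 1.74. Of 3 Ty3 and 5 Ty4 genes none passed (0 and 1), with medians of 0.27 and 0.13. The Ty1 gene YBR012W-A was at 1044 and 1276 RPKM in CK2, against 345 and 413 RPKM in WT (log2 fold change 1.61 ± 0.28, adjusted p = 0.00308). The Ty2 gene YGR161W-A was at 382 and 464 RPKM in CK2, against 102 and 105 RPKM in WT (log2 fold change 2.02 ± 0.25, adjusted p = 0.000593). The Ty3 gene YGR109W-B was at 7.46 and 7.66 RPKM in CK2, against 5.93 and 5.79 RPKM in WT (log2 fold change 0.32 ± 0.19, adjusted p = 0.233). The CK2 values of the Ty1 and Ty2 genes lay far above WT, and those of the Ty3 gene slightly above. Copies of a family share reads and are no separate measurements, although each is counted among the 848 higher genes. More copies in the genome cannot be told apart from more RNA per copy. Without each sample in turn all 57 Ty1 and 20 Ty2 genes still passed.

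Single cell wall genes moved in each direction. Of 26, 4 were higher and 6 lower, against 13.9% and 16.1% over all genes. The median of -0.08 became 0.02 with upper-quartile scaling. CRH1, a gene of a chitin transglycosylase, was at 405 and 361 RPKM in CK2, against 158 and 152 RPKM in WT (log2 fold change 1.30 ± 0.14, adjusted p = 0.000321). SCW10, of a glucanase-like protein, was at 482 and 517 RPKM in CK2, against 181 and 165 RPKM in WT (log2 fold change 1.52 ± 0.24, adjusted p = 0.00198). YPS3 was at 182 and 174 RPKM in CK2, against 52.0 and 55.9 RPKM in WT (log2 fold change 1.70 ± 0.26, adjusted p = 0.00156). These 3 rose, while CWP1 fell and CWP2, the gene of another mannoprotein, did not pass, at 6968 and 7341 RPKM in CK2, against 5974 and 5778 RPKM in WT (log2 fold change 0.28 ± 0.18, adjusted p = 0.252). The wall list had 5, 4, 4 and 3 lower genes without each sample in turn. Of 11 anaerobic genes, 3 were higher and 1 lower, among them TIR2, a mannoprotein gene, at 18.7 and 19.6 RPKM in CK2, against 5.76 and 8.03 RPKM in WT (log2 fold change 1.36 ± 0.25, adjusted p = 0.00402), and 3, 1, 1 and 2 were higher and 0 lower without each sample in turn. CWP2 was chosen after its values were seen.

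Genes for phosphate, vitamins and metals changed at single transporters and enzymes. PHO3, the phosphatase gene that thiamine represses, was at 40.1 and 53.3 RPKM in CK2, against 185 and 178 RPKM in WT (log2 fold change -1.95 ± 0.29, adjusted p = 0.00144). PHO89, a phosphate transporter gene, was at 10.5 and 12.2 RPKM in CK2, against 3.48 and 3.33 RPKM in WT (log2 fold change 1.49 ± 0.20, adjusted p = 0.000823). VHT1, the biotin permease gene, was at 10.5 and 9.36 RPKM in CK2, against 26.5 and 27.4 RPKM in WT (log2 fold change -1.35 ± 0.09, adjusted p = 3.35e-05). PHO89 thus rose and the other 2 fell. Of 23 phosphate genes 5 were higher and 6 lower, and of 25 vitamin genes 4 and 6, against 13.9% and 16.1% over all genes. FIT3, a gene of a wall protein that retains iron carriers, was at 102 and 86.2 RPKM in CK2, against 220.4 and 411 RPKM in WT (log2 fold change -1.67 ± 0.29, adjusted p = 0.00281), and its WT samples differed from each other more than its CK2 samples did. The paralogs ISU1 and ISU2, scaffold genes of iron-sulfur clusters, changed in opposite directions, with log2 fold change -0.80 ± 0.11, adjusted p = 0.000942 for ISU1 and log2 fold change 1.02 ± 0.17, adjusted p = 0.00261 for ISU2. ZRT2, a zinc transporter gene, was at 28.7 and 27.9 RPKM in CK2, against 62.7 and 58.8 RPKM in WT (log2 fold change -1.08 ± 0.16, adjusted p = 0.00121). Of 28 iron genes, 2 were higher and 5 lower, and of 15 zinc and copper genes 1 and 6. The phosphate list had 3, 3, 3 and 2 higher and 3, 4, 3 and 4 lower genes without each sample in turn, the vitamin list 1, 2, 1 and 4 higher, the iron list 2, 1, 1 and 1 higher and 3, 2, 2 and 2 lower, and the zinc and copper list 2, 4, 2 and 3 lower.

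Counts of most of the remaining lists moved with the fit. Of 31 proteasome genes, 3 were higher and 1 lower, with a median of 0.07, and 8 were higher and none lower with upper-quartile scaling, while none passed once any 1 of the 4 samples was left out. Of 25 antioxidant genes, 2 were higher and 3 lower, among them TRX1, a thioredoxin gene, at 178 and 167 RPKM in CK2, against 338 and 303 RPKM in WT (log2 fold change -0.89 ± 0.14, adjusted p = 0.00169), and TSA1, a peroxiredoxin gene, at 690.0 and 764 RPKM in CK2, against 436 and 439 RPKM in WT (log2 fold change 0.73 ± 0.12, adjusted p = 0.00207). TRX1 was thus lower and TSA1 higher in CK2. The antioxidant list had a median of -0.17. Without each sample in turn it was -0.08, -0.37, -0.17 and -0.21, and fewer genes were lower and as many higher. A fit of the 2 groups alone gave 5 higher and 10 lower. Of 16 trehalose and glycogen genes, 1 was higher and 2 lower, with a median of -0.38, none passed in any of those 4 fits, and a fit of the 2 groups alone gave 10 lower and 1 higher. GSY2, a glycogen synthase gene, was at 182 and 212 RPKM in CK2, against 329 and 351 RPKM in WT (log2 fold change -0.79 ± 0.25, adjusted p = 0.0413). Of 12 drug efflux genes, 1 was higher and 2 lower, among which PDR12, a weak acid exporter gene, was at 25.2 and 24.0 RPKM in CK2, against 52.7 and 51.7 RPKM in WT (log2 fold change -1.06 ± 0.22, adjusted p = 0.0062). Of 16 ion transport and calcineurin genes, 3 were higher and none lower (0), with 1, 1, 0 and 0 higher without each sample in turn. Of 19 genes of the PAU family, whose near-identical copies share reads, 2 were higher and none lower (0), with 2, 1, 4 and 1 higher without each sample in turn.

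Other motifs were searched in the same promoters. The Gcn4 site TGACTC was in 10.1% of higher, 12.7% of lower and 12.6% of all promoters, and in 11 of 13 arginine genes. The heat shock element GAANNTTC was in 20.4%, 18.2% and 19.7%, and in 12 of 24 chaperone genes. The Ste12 site TGAAACA was in 14.8%, 11.7% and 11.9%, and in 16 of 29 pheromone genes. Promoters of Ty1 and Ty2 copies are counted among those of higher genes. Ty1 genes such as YBR012W-A and YNL284C-A held the Ste12 site, and Ty2 genes such as YGR161W-A held the PAC motif. The 14.8% thus counts copies of a family more than once and is no share of separate promoters. The Hap complex site CCAAT was in 62.4%, 58.0% and 62.3%. The Cbf1 and Pho4 site CACGTG was in 4.48%, 5.91% and 5.91%, the Met31 and Met32 site TGTGGC in 13.8%, 13.3% and 14.0%, and the Aft1 site TGCACCC in 1.99%, 2.50% and 2.32%. The Pdr1 and Pdr3 site TCCGCGG was in 0.995%, 3.18% and 2.07%, and of the 115 genes that held it 6.96% were higher and 24.3% lower in CK2. Among the motifs searched, the late G1 boxes had the widest gaps in percentage points between higher genes and all genes. They were chosen after values had been seen, which favours this rank.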

How the data were processed

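RNA of yeast grown in YPD was sequenced in 16 libraries of 12 biological samples in 6 groups, and technical libraries of a sample were averaged. The authors deposited RPKM values per gene; the submitters' processing notes name CASAVA 1.8.2, TopHat2 2.0.13, edgeR and the build sacCer3, while the counting method, strand use, annotation and RPKM denominator are not given in the sources used here. RPKM steps gave whole reads for 98.1% to 98.5% of low values (up to 100 reads, tolerance 0.1 reads) in the 4 CK2 and WT libraries, from which read totals were fitted. Intervals and limits cover counting error only.

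Groups were taken from the labels. Values were tested as log2(RPKM + 1) in limma 3.58.1 (R 4.3.3) with all 12 samples and 6 groups in one fit and a trended variance, for genes with at least 1 RPKM in at least 2 of the 4 columns, with Benjamini-Hochberg adjustment over all genes tested and a threshold of 0.05. Of 7125 identifiers, 6079 (85.3%) matched RefSeq. Gene lists were described by counts and medians. The genes named were the casein kinase 2, auxotrophic marker and CKA1 neighbour genes, the 12 genes with a standard name and the largest change in each direction among those past the threshold with groups that did not overlap, and in each list up to 4 members past the threshold with the largest change (where none passed, the 2 with the highest mean). Others are marked as chosen after their values were seen, apart from STE2 and STE3, which describe the strains. Members and lists were chosen with earlier results of these data known. Promoters were the 500 bases before the start codon. The tests were tried on simulated data, and 14 alternatives were run. Some items are not reported here.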

Additional observations from a re-analysis of the deposited data

How the results depend on the processing

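Of 195 named genes tested, 178 passed the threshold, 147 of these also passed under every alternative that kept all 4 samples and 103 under all 14, and none reversed, which the choice of genes with large changes favours. The median changed sign under at least 1 alternative in 15 of 54 gene lists, mostly those with a median near 0, but at a mean RPKM of at least 10 it was -0.12 in gluconeogenesis genes, against 0.25, and -0.10 in flocculin genes, against 0.28. A fit of the 2 groups alone gave 1632 lower genes over all genes, and outside the left-out classes 2793 genes, 1619 of them lower. That fit also called 22 of 29 stress, 9 of 17 hexose transport, 9 of 17 fermentation, 8 of 20 tricarboxylic acid cycle, 6 of 9 lysine and 8 of 13 threonine and serine genes lower. Sample weights gave 3439 genes over all genes, 1680 higher and 1759 lower, and 3139, 1399 and 1740 outside the left-out classes. Leaving out 1 sample gave 1071 to 1281 genes over all genes (644 to 724 higher, 427 to 557 lower), and 862 to 1063 outside the left-out classes (444 to 518 higher, 418 to 545 lower). The cause of these differences was not tested, apart from the fewer samples in the last. With upper-quartile scaling 66.3% of all genes past the threshold were higher in CK2, against 52.4% without it, and with median-of-ratios scaling 46.2%. Deviations of samples with the same replicate number were not correlated across genes (Pearson r = -0.06, Spearman rho = -0.01). This cannot show whether such samples shared a batch, and a second label of CK2 replicate 2 numbers it 1. With the replicate number of the CK2 and WT samples alone as a block, 1866 genes passed, 999 higher and 867 lower. Outside the left-out classes 1604 passed, 754 higher and 850 lower. In that fit 19 named genes, TRP1 and LYS2 among them, lost their call. With 2 samples a group, the spread within CK2 and WT rests largely on the other groups of the series.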
